A study of Mus musculus with 12 samples.

Results

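The comparison described here is the late step of the 6TCF treatment, day 10 against day 5. Its members are 4 of the 12 arrays of the series, chosen by their titles, 2 from day 5 and 2 from day 10 of mouse embryonic fibroblasts under the chemical combination 6TCF. Both groups share everything else the labels give: fibroblasts prepared from embryos in a medium with 10% fetal bovine serum, a change to a medium with 15% fetal bovine serum and 40 ng/ml basic fibroblast growth factor, and the chemicals. What 6TCF contains is not given in the labels. Labels do not say whether the 2 arrays of a group come from separate embryos or cultures, so p-values may measure only technical spread. No array is labelled as an untreated culture of day 5 or day 10, so time in culture and the chemicals cannot be told apart. The 2 arrays of 6TCF day 0 were used to sort the late changes by what had happened before, and the 2 day 5 and 2 day 10 arrays of the other combination, SGCF, were the closest comparison. SGCF cultures had the same cells and media and their own, likewise unnamed, chemicals.

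Fibroblasts make and remodel the connective tissue matrix. Under transforming growth factor beta (TGF-beta) they become contractile myofibroblasts, and under inflammatory cytokines they release acute-phase proteins, complement and chemokines. Interferons switch on a separate set of genes for defence within the cell, many of them through a promoter element that binds STAT and IRF proteins. By the series' title, the chemical combinations were used to turn fibroblasts toward several lineages at once, and the late step asks what still moved after day 5, what turned back and what began only then.

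All levels below are log2(intensity + 16) after quantile normalization, so a difference of 1 is 2-fold at high signal and less than that is seen for dim genes. A gene was called when limma gave an adjusted p under 0.05 over the 10674 genes tested, and each change is given with its standard error from that fit, which all 12 arrays inform. Array medians of the deposited intensity were 102.4 and 136.2 at day 5 and 126.3 and 142 at day 10, day 5 replicate 1 being the dimmest of the 6TCF arrays. The number of arrays limits the precision. Across genes the replicates correlated at r = 0.993 at day 5 and 0.9957 at day 10. The actin control probe sets read higher at the 3' than at the 5' end by 0.82 ± 0.082 at day 5 and 1.04 ± 0.004 at day 10 (log2, SD, n = 2), against 0.45 ± 0.043 and 0.46 ± 0.008 in SGCF, and the part of this shift in the changes below was not tested. For Gapdh the same signal was 0.50 ± 0.132 and 0.49 ± 0.001 (SD, n = 2) at days 5 and 10 of 6TCF. Markers of the labelled cell type, fibroblasts, were bright: the collagen gene Col1a2 read 13.66 and 13.75 at day 5 and 13.52 and 13.63 at day 10, Thy1 12.63 and 12.74 and then 12.66 and 12.76, and Pdgfra 11.99 and 12.03 and then 11.85 and 11.99.

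From day 5 to day 10 of 6TCF, most genes of the acute-phase response and complement and some chemokine and interferon-response genes rose, and 15 of 27 TGF-beta response genes and smaller shares of ERK, fetal growth and neuronal genes fell. In all, 1688 genes were called, 15.8% of those tested. Of these, 928 (8.69%) were higher at day 10 and 760 (7.12%) lower, and 154 (1.44%) rose and 77 (0.721%) fell at least 2-fold. The median over all genes was -0.003. The count rested on every array: with 1 array left out it was 373 (day 5 replicate 1), 1448 (day 5 replicate 2), 370 (day 10 replicate 1) or 694 (day 10 replicate 2). Where 4 counts or values are given in a row below, they follow that order of left-out arrays. Leaving out an array also widens the standard error, so a lost call need not mean a changed value. The shares of all genes, 8.69% higher and 7.12% lower, are the background for every list count below. The 4 arrays did not overlap for 62.9% of all genes, so lack of overlap by itself sets few genes apart.

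The largest rise was that of Saa3. This serum amyloid protein of the acute phase read 9.59 and 9.81 at day 5 and 12.73 and 12.59 at day 10 and rose by 2.96 ± 0.25 (adjusted p = 5.43e-05), a 7.79-fold change. Retnla, a small secreted protein induced by type 2 cytokines, went from 6.03 and 6.08 to 8.88 and 8.72 and rose by 2.75 ± 0.23 (adjusted p = 5.43e-05). Both day 10 arrays lay far above both day 5 arrays for these genes, with replicates within 0.25 of each other. Ccl8, a chemokine for monocytes, went from 9.61 and 9.67 to 12.06 and 12.10, a rise of 2.45 ± 0.22. Cxcl13, which attracts B lymphocytes, went from 6.44 and 6.36 to 8.56 and 8.60, a rise of 2.17 ± 0.14. C1s1, a protease that starts the classical complement pathway, went from 7.54 and 7.87 to 9.92 and 9.88, a rise of 2.19 ± 0.16. Other large rises were in Kera, a corneal matrix proteoglycan (2.46 ± 0.15), Gbp2, a guanylate-binding protein of interferon-treated cells (2.39 ± 0.25), Adamdec1, a secreted metalloprotease (2.13 ± 0.15), and Ifi47, an interferon-induced GTPase (2.06 ± 0.18). These genes kept their calls without each of the 4 arrays in turn. The other 3 of the 12 largest rises, Myl1, Tnnc2 and Mylpf, encode sarcomere proteins and are described with the muscle genes.

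The largest falls were of another kind, among them chromatin, cytoskeletal, matrix and transcription factor genes. Hmga2, a chromatin protein of proliferating embryonic cells, stood at 12.96 and 12.78 at day 5 and 10.99 and 11.37 at day 10 and fell by 1.69 ± 0.20 (adjusted p = 0.000482). It was still among the brighter genes at day 10. Slc20a1, a phosphate transporter, fell by 1.69 ± 0.22, from 10.49 and 9.66 to 8.24 and 8.52. Map1b, a microtubule protein of growing axons, fell by 1.66 ± 0.22, Fbn2, the fibrillin of developing tissue, by 1.64 ± 0.27, and Ahnak, a scaffold protein beneath the cell membrane, by 1.49 ± 0.14. The transcription factor genes Zfhx3 and Foxc2 fell by 1.51 ± 0.25 and 1.49 ± 0.15, and Sox2, a factor of neural progenitors, went from 8.15 and 7.86 to 6.26 and 6.68, a fall of 1.53 ± 0.22. Col11a1, a cartilage collagen, fell by 1.54 ± 0.23, Camk1d, a calcium-dependent kinase, by 1.45 ± 0.22, and Efhd1, a calcium-binding protein of mitochondria, by 1.68 ± 0.14. No fall was as large as the 12 largest rises, and the 12 largest falls lay between 1.45 and 1.69. Of the 12, only the neurofilament gene Nefl lost its call in a leave-out (-1.60 ± 0.39, with -1.28 without day 5 replicate 1 and -0.90 without day 10 replicate 1). Slc20a1, Map1b and Ahnak had further probe sets, of which 1 of 1, 1 of 2 and 2 of 3 moved the same way. With the mean of all probe sets their changes were smaller but called, at -0.96, -0.72 and -0.46.

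**Figure D1:**
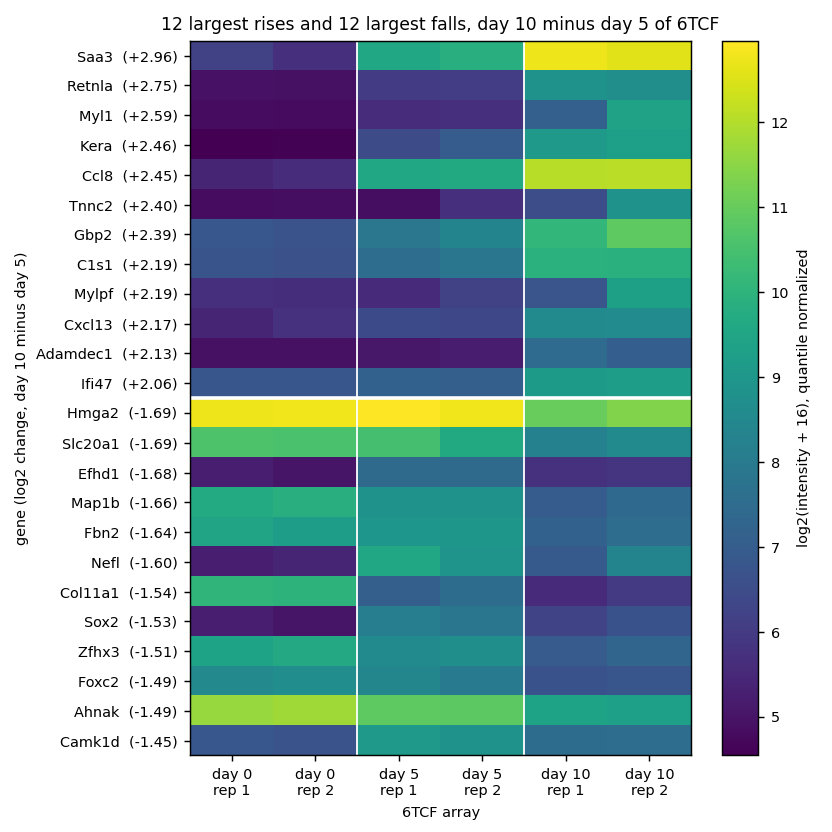
Heat map of the 12 largest rises and 12 largest falls, with 1 row per gene and 1 column per 6TCF array, coloured by log2(intensity + 16) after quantile normalization. The log2 change from day 5 to day 10 stands beside each name; Saa3 and Ccl8 are bright at both day 10 arrays, and for Myl1, Tnnc2 and Mylpf day 10 replicate 2 is brighter than replicate 1.

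Acute-phase and complement genes had the highest share of called rises among the 38 lists. Of 15 members tested, 12 were called higher and 0 lower, against 8.69% higher among all genes, and the list's median was 1.04. In the 4 leave-outs, 7, 12, 7 and 10 members were called higher. C1ra, the partner protease of C1s, went from 6.78 and 7.03 to 8.39 and 8.61 and rose by 1.59 ± 0.16, while Serping1, the inhibitor of both proteases, went from 8.52 and 8.85 to 10.09 and 10.18 and rose by 1.45 ± 0.16. Enzymes and inhibitor of the first complement step were thus all higher at day 10. The members not called were Ptx3, Itih4 and Cfb, at 0.47, 0.33 and 0.08. The summed intensity of the 21 measured members was 2823 and 3372 at day 5 and 12450 and 11660 at day 10.

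Among chemokines and cytokines, 7 of 28 tested members rose and 1 fell. The risers were all chemokines. Besides Ccl8 and Cxcl13, they included the eosinophil attractant Ccl11, which went from 6.35 and 6.05 to 7.88 and 8.03 (1.76 ± 0.14), and the neutrophil attractant Cxcl5, from 8.36 and 9.08 to 10.30 and 10.14 (1.5 ± 0.35). Cxcl5 was not called without day 5 replicate 1 (1.14), day 10 replicate 1 (1.42) or day 10 replicate 2 (1.58). Cytokine genes on the same list, Il6, Tnf, Il1b and Tslp, were not called, with changes of -0.03, 0.11, 0.08 and -0.03. Leave-out counts of members called higher were 4, 6, 4 and 5. Genes that type 2 cytokines induce rose in 5 of 10 cases, median 0.64, with 4, 6, 4 and 4 in the leave-outs. They were Retnla, Ccl8, Ccl11, the decoy receptor gene Il13ra2 (1.40 ± 0.15, from 6.32 and 6.32 to 7.84 and 7.59) and the receptor chain gene Il4ra (0.71), while Arg1, a macrophage arginase of the same response, was not called (-0.13). Ccl8 and Ccl11 stand on both lists.

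Interferon-stimulated genes had 13 of 33 tested members called higher and 0 lower. Their median was 0.47, and the leave-outs called 6, 13, 4 and 8. The rise was led by GTPases that interferon-gamma induces. Gbp2 went from 7.87 and 8.34 to 10.13 and 10.87, with day 10 replicate 2 the higher. Iigp1 went from 6.55 and 6.96 to 8.73 and 8.71 and rose by 1.96 ± 0.18, and Gbp7 from 6.00 and 6.15 to 7.4 and 7.24, a rise of 1.24 ± 0.13. Gbp3 rose by 1.34 ± 0.37, but its day 5 arrays differed (5.84 and 6.58), and its call was lost without day 5 replicate 1 (0.98), day 10 replicate 1 (1.39) or day 10 replicate 2 (1.29). The antiviral members Rsad2, Oas2 and Oas1a were not called, at -0.11, -0.19 and -0.04. Others, Ifit2, Ifit3, Bst2, Ifih1 and Isg20, were called higher. Gbp genes resemble each other, and the files do not say how far their probe sets are specific. Antigen presentation genes, which load peptides onto class I and II molecules, rose in 5 of 19 cases (leave-outs 3, 4, 3 and 3). Psmb8, an immunoproteasome subunit, went from 5.65 and 5.96 to 6.91 and 6.76 (1.04 ± 0.13), Psmb10, another, rose by 0.76 ± 0.12 and the proteasome activator gene Psme1 by 0.81 ± 0.14. B2m, the light chain of class I molecules, was not called (-0.38).

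The promoters of 3 guanylate-binding protein genes are shown because their levels rose together and each holds the interferon-stimulated response element, ISRE, searched on both strands as GAAA, any 2 bases and GAAA. Sequences are RefSeq windows of assembly GRCm38.p6, printed 5′ to 3′ on the gene's strand from 150 bases before the start site to the base before it. Capitals mark ISRE matches and, in Gbp7, also matches of the STAT element GAS, searched as TTCNNNGAA. The matches lie 59 bases upstream in Gbp2 at chr3:142620513-142620662 (plus strand), 45 and 39 bases upstream, overlapping each other, in Gbp3 at chr3:142559894-142560043 (plus strand), and 53 bases upstream in Gbp7 at chr3:142530186-142530335 (plus strand), whose GAS matches lie at 106 and 87.
Gbp2: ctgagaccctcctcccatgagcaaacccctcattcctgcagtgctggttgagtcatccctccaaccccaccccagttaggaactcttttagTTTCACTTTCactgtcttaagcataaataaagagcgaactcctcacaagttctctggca
Gbp3: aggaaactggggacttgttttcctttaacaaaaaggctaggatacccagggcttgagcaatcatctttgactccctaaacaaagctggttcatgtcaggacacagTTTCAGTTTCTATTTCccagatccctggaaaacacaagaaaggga
Gbp7: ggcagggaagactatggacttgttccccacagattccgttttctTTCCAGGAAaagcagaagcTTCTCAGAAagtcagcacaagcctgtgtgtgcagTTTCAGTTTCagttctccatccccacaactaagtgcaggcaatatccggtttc
In windows of 300 bases, from 250 before to 50 after the start, the ISRE occurred in 8 of the 11 interferon-stimulated genes called higher that had a window and in 16 of the 25 tested, against 3.99% of the 27025 genes with a window. Among genes that rose at least 2-fold as a whole, the share was 10.16%. A match describes letters in a window and is no evidence of binding.

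Genes that NF-kB or STAT3 induce had 7 of 27 tested members called higher and 1 lower. Most of these calls were lost in every leave-out but that of day 5 replicate 2. Socs2, a suppressor of cytokine signalling, kept its call in each leave-out and rose by 0.87 ± 0.13, from 9.15 and 9.34 to 9.99 and 10.24. Its relative Socs3 rose by 0.80 ± 0.16, with 0.62 and no call without day 5 replicate 1 and 0.75 and no call without day 10 replicate 1. Ptgs2, the inducible cyclooxygenase, was the member called lower (-0.92), and it was uncalled at -0.48 without day 5 replicate 1 and at -0.62 without day 10 replicate 1, with -1.36 without day 5 replicate 2. Its call was also lost with pseudocount 1, with the replicate block and with the 6TCF arrays only. Matrix metalloproteinase genes and inhibitors changed in both directions, 4 of 21 higher and 2 lower (leave-outs 1, 5, 2 and 2 higher and 0, 3, 0 and 1 lower), and Mmp3, stromelysin, rose by 1.15 ± 0.16, from 11.14 and 10.86 to 12.11 and 12.20.

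Macrophage markers had 10 of 26 tested members called higher and 0 lower, and 8 of the 10 had fallen by day 5. In these bulk arrays, more cells of a type and more RNA per cell cannot be told apart. Lyz2, a lysozyme of macrophages, read 10.60 and 10.47 at day 0, 7.89 and 8.27 at day 5 and 9.69 and 9.55 at day 10 and rose late by 1.54 ± 0.26, with 1.36 and no call without day 5 replicate 1. Adgre1, the F4/80 surface protein, went from 5.70 and 5.83 to 6.57 and 6.46, a rise of 0.75 ± 0.12 that held in every leave-out, and stayed under its day 0 values of 6.90 and 7.02. Csf1r, the receptor for the macrophage growth factor, was not called (8.25 and 8.34 and then 8.21 and 7.96). Ptprc read 4.64 and 4.71 at day 5 and 4.84 and 4.75 at day 10, under the filter value of 5.25, and Itgam did not pass the filter. The summed intensity of the list was 4433 and 4261 at day 0, 1454 and 1616 at day 5 and 2588 and 2424 at day 10. The leave-outs called 1, 7, 3 and 6 members higher. The part of macrophage RNA in the rises of the immune genes above was not tested. Because the day 5 arrays enter both steps with opposite signs, an error in them adds to a fall followed by a rise.

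Lysosomal genes had 8 of 34 tested members called higher and 0 lower (leave-outs 2, 6, 2 and 3). The proteases Ctsh and Lgmn led them: Ctsh went from 8.80 and 8.60 to 9.84 and 9.78 (1.11 ± 0.20) and Lgmn from 9.05 and 9.31 to 10.27 and 10.20 (1.06 ± 0.13). Of other blood cells, lymphocyte markers had 0 of 9 called in limma's test, with changes between -0.31 and 0.20 and a smallest adjusted p of 0.281 for Cd2, and among mast cell and granulocyte markers only S100a8, a calcium-binding protein of neutrophils, was called, with a rise of 1.78 ± 0.19 from 6.03 and 5.98 to 7.65 and 7.92. Endothelial markers had 1 of 15 called, Esam, at -0.85 (-0.68 without day 5 replicate 1 and -0.65 without day 10 replicate 1, both uncalled), and Pecam1, Tek and Tie1 did not pass the filter on dim genes.

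TGF-beta and myofibroblast genes had 15 of 27 tested members called lower and 0 higher, the highest share of falls of any list, against 7.12% of all genes. The median was -0.50. In the leave-outs, 1, 14, 4 and 4 were called lower, so without day 5 replicate 1 the calls were all but lost. Of the 15, 14 had already fallen by day 5. Col8a1, a short-chain collagen of activated fibroblasts, read 10.78 and 10.84 at day 0, 7.61 and 7.55 at day 5 and 6.71 and 6.57 at day 10, and its late fall of 0.94 ± 0.16 was called in every leave-out. Its other probe set changed by -0.20, and the mean of both was -0.57, still called. Inhba, the activin subunit, fell by 1.17 ± 0.21, from 11.29 and 11.09 to 9.93 and 10.11, with -1.07 and no call without day 5 replicate 1. Tnc, the matrix protein tenascin, fell by 0.97 ± 0.22 and Col4a1, a basement membrane collagen, by 0.82 ± 0.18, and both were uncalled without day 5 replicate 1 (-0.78 and -0.78) or day 10 replicate 1 (-0.83 and -0.71). The summed intensity of the 27 members fell in value from 57530 and 53490 to 40420 and 40410. Fibroblast identity genes had 1 of 26 higher and 6 lower, median -0.11 (leave-outs 1, 2, 1 and 2 lower). Dpt, dermatopontin of the skin matrix, rose by 1.20 ± 0.18, while the mesenchymal factor gene Prrx1 fell by 0.77 ± 0.11, from 12.19 and 12.07 to 11.37 and 11.34.

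Immediate early and ERK feedback genes, which growth factors induce through the ERK kinases, had 10 of 27 tested members called lower and 0 higher. Their median was -0.38, and the leave-outs called 1, 8, 0 and 4, 0 of them without day 10 replicate 1. Ccnd1, the cyclin that growth factors induce, stood at 12.02 and 11.76 at day 5 and 10.63 and 10.91 at day 10 and fell by 1.12 ± 0.20, with -0.99 and no call without day 5 replicate 1 and -0.98 and no call without day 10 replicate 1. Dusp6, the phosphatase that switches ERK off, fell by 0.81 ± 0.20 after a rise by day 5, and was at -0.58 and -0.61, uncalled, without the same arrays. Hbegf, a ligand of the EGF receptor, had unequal day 5 arrays (8.31 and 7.34) and fell by 1.05 ± 0.24, to 6.77 and 6.79. Its value without day 5 replicate 1 was -0.56 and without day 5 replicate 2 -1.53, and only the latter was called among the 4. Of early-response genes, Jun was called lower but did not hold its call in every leave-out (-0.62, -0.96, -0.73 and -0.85). Fos, Junb and Egr1 were not called, at 0.30, 0.36 and -0.52. Targets of cAMP and CREB had 4 of 24 lower and 0 higher (leave-outs 1, 4, 1 and 2 lower), among them the scaffold gene Akap12 (-1.15 ± 0.23, -1.04 and uncalled without day 10 replicate 1). Wnt/beta-catenin targets had 2 of 23 higher (8.7%) and 3 lower (13%), beside 8.69% and 7.12% of all genes. Most of these calls were lost in every leave-out but that of day 5 replicate 2.

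Fetal growth and imprinted genes had 8 of 23 tested members called lower and 3 higher. The leave-outs called 3, 7, 3 and 7 lower. Hmga2 led them, and Igf2bp3, a fetal protein that binds growth factor messages, fell by 0.92 ± 0.12, from 8.76 and 8.80 to 7.87 and 7.85. Both held their calls in every leave-out. Peg3, an imprinted zinc finger gene, fell by 1.22 ± 0.24 and Igf2r, the receptor that clears Igf2, by 1.15 ± 0.23. Peg3 was at -1.26 and Igf2r at -1.13, both uncalled, without day 5 replicate 1, and they were uncalled without day 10 replicate 1 too (-1.19 and -1.06). The growth factor gene Igf2 itself was not called (-0.04).

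Of 34 DNA replication genes, 6 were lower and 0 higher, with 0, 3, 0 and 3 in the leave-outs, and of 38 mitosis genes, 6 were lower and 0 higher, with 1, 4, 0 and 1 in the leave-outs. Cenpe, a kinetochore motor, fell by 0.97 ± 0.18, from 7.62 and 7.89 to 6.76 and 6.80, and was just uncalled without day 10 replicate 1 (-0.95, adjusted p = 0.0503). Mki67, the proliferation marker, fell by 0.93 ± 0.24, from 9.29 and 9.41 to 8.38 and 8.46, and lost its call in each of the 4 leave-outs (-0.99, -0.87, -0.89 and -0.97). Many members changed little: Cdk1 was at 0.01, Ccnb2 at 0.04 and Pcna at -0.11, none called. Growth arrest genes and cell cycle inhibitors were mixed, 5 of 27 higher and 4 lower (leave-outs 0, 7, 1 and 2 higher and 1, 2, 1 and 1 lower). Cdkn1c, the inhibitor p57, fell by 0.72 ± 0.11 after its rise to day 5, while Gas6, a ligand of TAM receptors, rose by 0.97 ± 0.18 (0.90 and uncalled without day 5 replicate 1).

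The promoter of Mki67 is shown for an element known from mitosis genes, the cell cycle genes homology region CHR, searched as TTTGAA on both strands. Capitals mark its 2 matches, 116 and 98 bases upstream of the start, in the window chr7:135716380-135716529 (minus strand, GRCm38.p6).
Mki67: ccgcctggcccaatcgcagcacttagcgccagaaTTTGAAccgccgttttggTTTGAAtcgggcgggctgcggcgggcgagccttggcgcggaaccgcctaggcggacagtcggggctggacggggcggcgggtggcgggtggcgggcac
In the 300-base windows, CHR letters occurred in 5 of the 6 mitosis genes called lower and in 25 of the 32 tested members with a window, against 20.2% of all genes, and both called and uncalled members held it. The E2F element TTTCGCGC occurred in 3 of 5 replication genes called lower, Mcm7, Lig1 and Uhrf1, and in 7 of 29 tested, against 0.37% of all genes.

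Neuronal genes had 10 of 35 tested members called lower and 1 higher. The leave-outs called 6, 10, 5 and 8 lower. Nefl, the light neurofilament chain, read 5.27 and 5.42 at day 0, 9.55 and 8.91 at day 5 and 6.94 and 8.33 at day 10, so its day 10 arrays lay apart from each other and replicate 2 came near the day 5 level. Syn1, a synaptic vesicle protein, went from 6.30 and 6.13 to 4.77 and 4.97 and fell by 1.35 ± 0.13. Its day 0 values were 5.00 and 5.29, and those of days 0 and 10 lie near or under the filter value of 5.25. The size of the fall is thus uncertain and lay between -0.67 and -2.06 over the settings that kept all 6TCF arrays. Prph, the peripheral neuron filament, was the member that rose, by 1.81 ± 0.21, from 6.17 and 6.81 to 8.09 and 8.51. Of its 3 other probe sets, 1 moved the same way, and the mean over all of them was 0.33 and uncalled (adjusted p = 0.111). Genes of neural stem cells, glia and neural crest had 6 of 28 tested members called lower and 2 higher (leave-outs 2, 7, 3 and 6 lower), and Zic2, a neural patterning factor, fell by 0.85 ± 0.14, from 6.59 and 6.42 to 5.51 and 5.79.

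Of 25 skeletal muscle genes tested, 9 were called higher and 0 lower, and day 10 replicate 2 carried most of the rise. Mylpf, the fast myosin regulatory light chain, read 5.55 and 6.17 at day 5 and then 6.78 in replicate 1 and 9.34 in replicate 2 at day 10. Myl1, another fast light chain, read 5.62 and 5.72 at day 5 and 7.14 and 9.40 at day 10, and the troponin gene Tnnc2 4.85 and 5.72 and then 6.54 and 8.82. In each case both day 10 arrays were above day 5, and replicate 2 was more than 2-fold above replicate 1. The fitted changes were 2.19 ± 0.65, 2.59 ± 0.56 and 2.40 ± 0.59. Without day 10 replicate 2 they were 0.91, 1.46 and 1.26, and without day 5 replicate 1 1.88, 2.54 and 1.96, none called. Mylpf was also uncalled without day 5 replicate 2 (2.50). The leave-outs called 0, 4, 15 and 0 members. The muscle regulator Myod1 was not called (5.75 and 5.62 and then 5.42 and 6.09), nor was Myog (4.93 and 5.52 and then 5.62 and 7.22). The summed intensity of the list was 1408 and 1444 at day 5, 1823 in day 10 replicate 1 and 5116 in day 10 replicate 2.

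Epithelial genes changed in both directions, 6 of 20 higher and 3 lower (leave-outs 2, 3, 2 and 2 higher and 2, 2, 1 and 1 lower). Epcam, an epithelial adhesion protein, went from 5.6 and 5.85 to 7.17 and 7.0, a rise of 1.36 ± 0.21, and Dsp, which anchors keratin to desmosomes, fell by 1.00 ± 0.16, from 7.80 and 8.07 to 6.92 and 6.95. Both held in every leave-out. Mesothelial markers had 4 of 17 tested members called higher and 0 lower (leave-outs 1, 4, 1 and 1), with Aldh1a1, a retinaldehyde dehydrogenase, rising by 0.96 ± 0.14. Of the defining mesothelial markers, Wt1 and Krt19 were called higher, and neither held its call in every leave-out. Their leave-out values were 0.56, 0.95, 0.68 and 0.83 for Wt1 and 0.59, 0.50, 0.67 and 0.41 for Krt19. The mesothelial surface genes Msln and Upk3b were not called (-0.21 and 0.07). Endoderm and liver genes had 4 of 19 tested members called higher and 1 lower, with 4, 5, 4 and 4 rises in the leave-outs. Apoe, the lipid carrier apolipoprotein E, went from 9.83 and 10.06 to 11.84 and 11.77 (1.86 ± 0.12), Cyp7b1, an oxysterol hydroxylase, from 8.07 and 8.77 to 10.17 and 9.80 (1.57 ± 0.21), the haem carrier gene Hpx rose by 1.40 ± 0.16 and the albumin gene Alb by 1.30 ± 0.23. The liver transcription factors Hnf4a and Foxa2 were not called (0.27 and 0.28). Retinoid metabolism genes had 5 of 18 tested members called higher and 0 lower (leave-outs 3, 6, 3 and 4), with Adh1, a retinol-oxidizing dehydrogenase, rising by 1.22 ± 0.15 and Cyp26a1, which degrades retinoic acid, by 0.93 ± 0.13. Cartilage and bone markers had 2 of 11 lower (18.2%) and pluripotency genes 1 of 14 (7.14%), beside 7.12% of all genes. The pluripotency list did not include Sox2, whose fall is given above. In both lists 0 were higher. Both had fewer calls without day 5 replicate 1 or day 10 replicate 1.

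**Figure D2:**
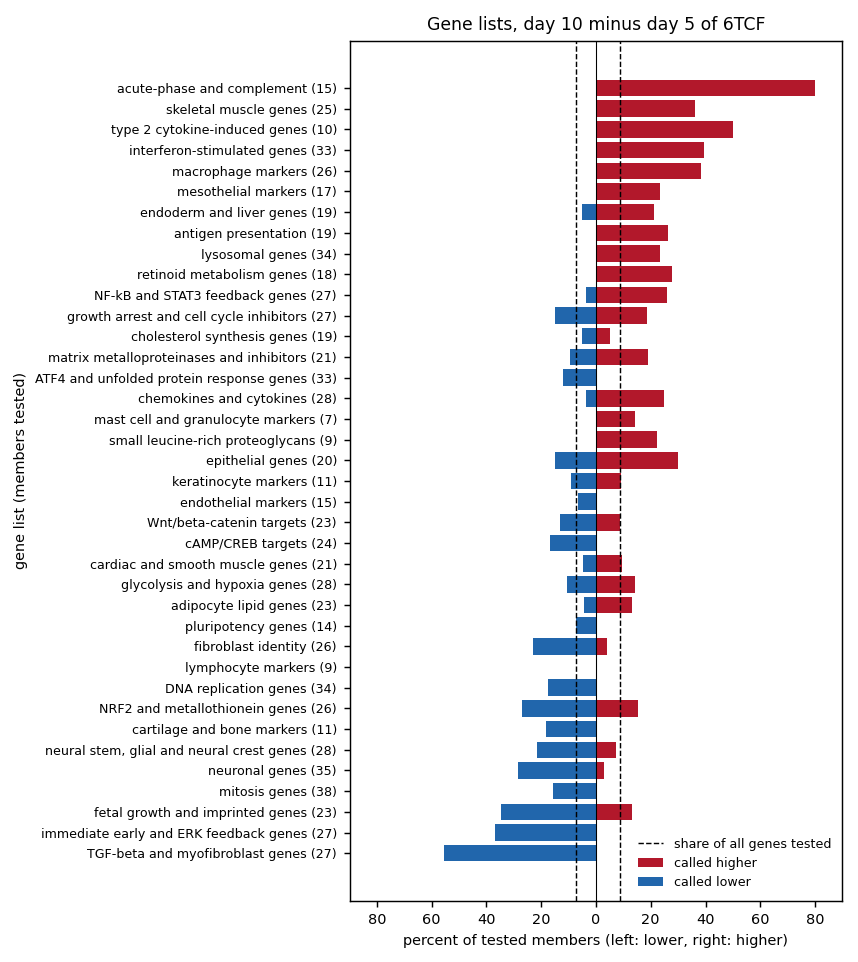
Share of each list's tested members called higher (right) and lower (left) at day 10 against day 5, in percent; the number of tested members stands beside each name and the dashed lines mark the share of all genes, 8.69% higher and 7.12% lower. Acute-phase and complement genes have the longest bar to the right and TGF-beta and myofibroblast genes the longest to the left.

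Sorted by what had happened before day 5, the called genes fell into 4 groups. Of the 1688, 480 continued, being called with the same sign between day 0 and day 5, where 15.1% of all genes were called higher and 12.6% lower. Another 278 reversed, being called with opposite signs in the steps. A further 183 started, being uncalled in the early step and differing from it by the test of late against early change, which called 12.4% of all genes. The other 747 met none of these rules. Both steps share the 2 day 5 arrays, so these counts are a description. Without day 5 replicate 1 they were 139, 71 and 12, and without its replicate 2 they were 258, 320 and 143. Leaving out day 10 replicate 1 gave 146, 68 and 48, and leaving out its replicate 2 gave 210, 140 and 107. Leaving out a day 0 array also lowered them, to 291, 175 and 91 without replicate 1 and 259, 181 and 94 without replicate 2.

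More of the continuing genes rose than fell, 305 against 175, and more of the reversing genes fell late than rose, 187 against 91. Of the 278 reversing genes, 166 were no longer called different from day 0 at day 10. Efhd1 is an example of a reversal: it read 5.27 and 5.01 at day 0, 7.46 and 7.44 at day 5 and 5.74 and 5.81 at day 10. Camk1d read 6.84 and 6.70, then 9.10 and 8.87 and then 7.51 and 7.56, and Lrrn1, a neural leucine-rich repeat protein, 6.48 and 6.12, then 9.16 and 8.88 and then 7.28 and 7.88. These 3 had risen by day 5 and ended between the day 0 and day 5 levels. In the other direction, Moxd1, a monooxygenase-like protein, read 6.98 and 7.28 at day 0 and 5.87 and 6.30 at day 5. At day 10 it read 7.62 and 7.83. Its change from day 0 to day 10 was 0.59 ± 0.23, uncalled in limma's test (adjusted p = 0.0516). Lhx9, a LIM homeobox factor, read 8.21 and 8.27, then 7.18 and 7.44 and then 8.61 and 8.72. It too was uncalled against day 0 (0.42 ± 0.18). Asb4, a component of a ubiquitin ligase, had unequal day 5 arrays (5.44 and 6.21) and rose by 1.21 ± 0.19.

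Among starting genes, Adamdec1 read 4.92 and 4.92 at day 0, 5.09 and 5.21 at day 5 and 7.50 and 7.06 at day 10. Its day 0 and day 5 values lie under the filter value of 5.25, so an early change could not be measured well and the size of the late one lay between 1.30 and 2.79 over the settings that kept all arrays. Ifi47 read 6.79 and 6.79, then 7.16 and 7.09 and then 9.13 and 9.25. Hgd, an enzyme of tyrosine breakdown, rose by 1.77 ± 0.14, Clec2d, a ligand of natural killer cell receptors, by 1.97 ± 0.31 and Pcp4, a calmodulin-binding peptide, by 1.65 ± 0.25. Hgd and Pcp4 also started under the filter value, and their sizes lay between 0.99 and 2.49 and between 0.94 and 2.27. Starting falls included Hmga2, at 12.75 and 12.78 at day 0, Foxc2, Ppbp, a platelet chemokine (-1.38 ± 0.15, from 6.96 and 6.63 to 5.42 and 5.41), and Notch2, a receptor of cell-contact signalling (-1.26 ± 0.20). Kcnn4, a potassium channel, was at -1.30 ± 0.22 and uncalled without day 10 replicate 1 (-1.10). Continuing falls of the same size were in Ints6, a subunit that processes small nuclear RNA (10.50 and 10.55, then 9.71 and 9.61 and then 8.13 and 8.42), and in Map1b, Zfhx3, Col11a1 and Ahnak. Notch2 and Ints6 each had 1 other probe set, at -0.19 for both, and with the mean of all probe sets they were at -0.72 and -0.79, still called.

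**Figure D3:**
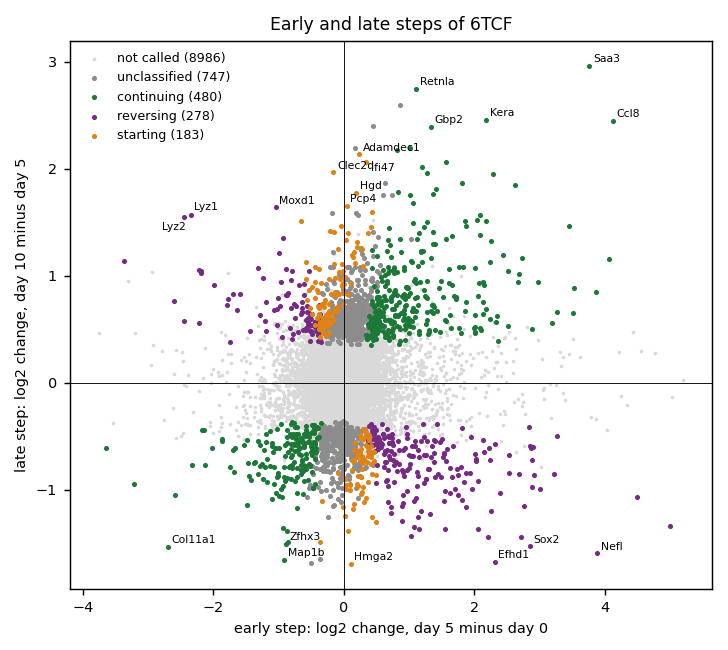
Each point is 1 of the 10674 genes, with its log2 change from day 0 to day 5 of 6TCF across and from day 5 to day 10 upward; colours mark the 480 continuing, 278 reversing, 183 starting and 747 unclassified genes. Saa3 and Ccl8 rise in both steps, Nefl, Sox2 and Efhd1 rise and then fall, and Hmga2 is uncalled in the early step and falls in the late one.

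The step from day 5 to day 10 in SGCF was the closest comparison and shares no array with that of 6TCF. In SGCF 11.7% of genes were called higher and 9.97% lower. Of the genes called in 6TCF, 552 were called in the same direction in SGCF, which is 32.7% of the 6TCF calls and 23.8% of the SGCF calls, and 92 were called in the opposite direction. Across genes the changes correlated at r = 0.316, where genes are not independent replicates. The test of the difference itself called 1307 genes (12.2%), 5.71% higher and 6.54% lower in 6TCF, of which 497 were also called in the 6TCF late step. Array brightness differed between the arms, with SGCF medians of 60.9 to 71.0 at days 5 and 10, so processing and arm cannot be told apart.

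Several leading changes had values near those of the other arm. For Saa3 the SGCF change was 2.89 ± 0.25 and the difference between the arms 0.07 ± 0.35 (adjusted p = 0.916), which misses the threshold and does not show equality. Gbp2 changed by 2.57 ± 0.25 in SGCF and Hmga2 by -1.78 ± 0.20, with uncalled differences of -0.18 ± 0.36 and 0.09 ± 0.28. Others differed. Cxcl13 rose by 2.17 ± 0.14 in 6TCF against 0.20 ± 0.14 in SGCF, a difference of 1.97 ± 0.20 (adjusted p = 0.000314). C1s1 went up less in 6TCF than in SGCF (3.76 ± 0.16), by -1.57 ± 0.22 (adjusted p = 0.00154). Of the 15 acute-phase and complement genes tested, 5 differed between the arms, of the 27 TGF-beta and myofibroblast genes 15, and of the 38 mitosis genes 26. The medians of these lists in SGCF were 1.52, 0.37 and -1.18, beside 1.04, -0.50 and -0.25 in 6TCF.

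Most of the widest differences among genes called in 6TCF were between opposite movements. Cdkn1c fell by 0.72 ± 0.11 in 6TCF, from 11.5 and 11.56 to 10.75 and 10.88, and rose in SGCF from 9.66 and 9.65 to 12.32 and 12.24. The difference was -3.34 ± 0.16 (adjusted p = 1.23e-06). Inmt, an amine methyltransferase, went from 9.69 and 9.51 to 8.56 and 8.69 in 6TCF and from 6.05 and 5.18 to 8.08 and 8.15 in SGCF. Col11a1 fell in 6TCF and went from 6.56 and 6.68 to 7.43 and 7.82 in SGCF. Igf1, an insulin-like growth factor, rose in both, from 8.47 and 8.58 to 9.67 and 9.54 in 6TCF and from 5.98 and 5.64 to 9.28 and 9.37 in SGCF. In the other direction, Mmp3 rose in 6TCF and went from 12.83 and 12.80 to 12.06 and 11.61 in SGCF. Grp, a neuropeptide, went from 7.99 and 7.42 to 8.62 and 8.68 in 6TCF and from 7.45 and 6.61 to 5.50 and 5.03 in SGCF. Lyz1, a lysozyme whose sequence is close to that of Lyz2, went from 9.28 and 9.55 to 11.15 and 10.81 in 6TCF and from 8.97 and 8.32 to 7.70 and 8.15 in SGCF. Its 2 other probe sets changed by -0.04 and 1.89 in 6TCF. All of the differences named in this paragraph kept their calls without each of the 8 arrays in turn, although the 6TCF change of Grp by itself was uncalled in each leave-out (1.23, 0.66, 0.97 and 0.92), and that of Inmt was called only without day 5 replicate 2.

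**Figure D4:**
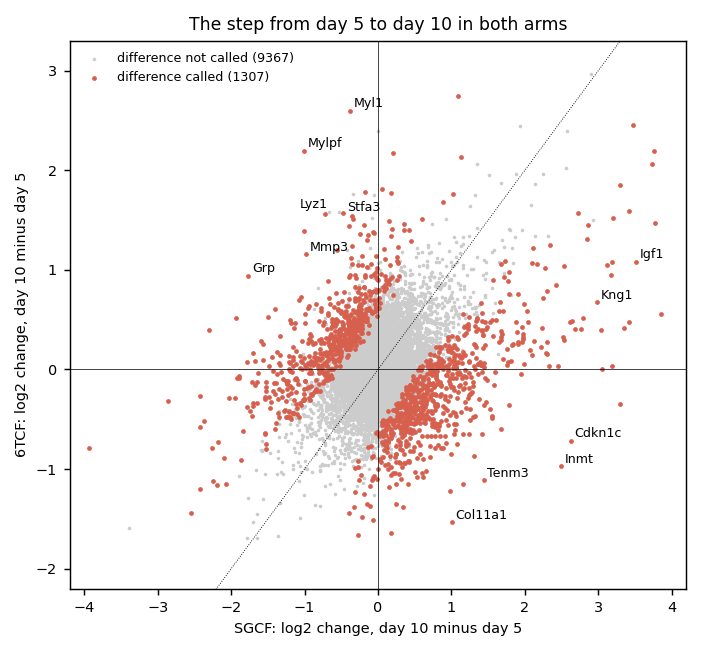
Each point is 1 of the 10674 genes, with its log2 change from day 5 to day 10 in SGCF across and in 6TCF upward; the dotted line marks equal change and red points the 1307 genes whose difference between the arms was called. Igf1 rises in both arms but further in SGCF, and Cdkn1c, Inmt and Col11a1 fall in 6TCF while their SGCF values are above 0.

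Genes that fell late had longer genomic spans, by their medians, than genes that rose. Genomic span, from the first to the last base of a gene in RefSeq for GRCm38.p6, was found for 10668 of the 10674 genes. Its median was 65.6 kb for the 77 genes that fell at least 2-fold, 17.7 kb for the 154 that rose at least 2-fold and 21.3 kb for all genes tested. In the decile of genes with the longest span, median 182.8 kb, 158 genes were called lower and 52 higher, and in the decile with the shortest, median 2.5 kb, 33 were lower and 117 higher. Spearman's rho between span and late change was -0.191 across genes, which are not independent replicates, and it lay between -0.144 and -0.226 without each of the 4 arrays. For the early step of 6TCF rho was -0.045 and for the late step of SGCF it was 0.093, where the genes that fell at least 2-fold had a median span of 20.7 kb. This relation was looked at after the values were seen. The actin 3' minus 5' signal of 6TCF moved in both steps, from 0.34 to 0.82 in the early one and on to 1.04 in the late one. In the late step of SGCF it went from 0.45 to 0.46. The Gapdh signal of 6TCF went from 0.39 to 0.50 early and then to 0.49. The part of these signals in the relation was not tested.

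**Figure D5:**
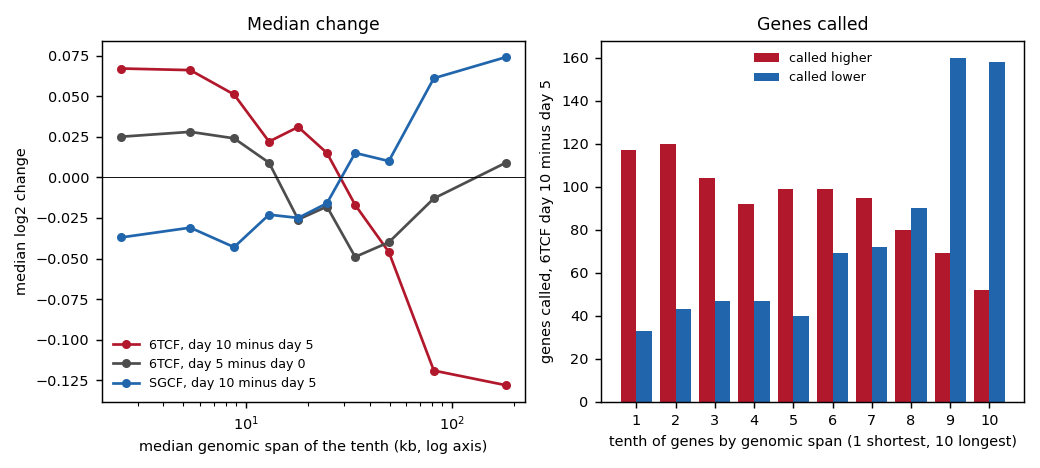
Left, median log2 change of genes in deciles of genomic span (log axis, kb) for the late and early steps of 6TCF and the late step of SGCF; right, number of genes called higher and lower in the late step of 6TCF in each decile. The late 6TCF line ends at -0.128 in the longest decile, where 158 genes were lower and 52 higher.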

How the data were processed

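RNA of 12 samples was measured on Affymetrix Mouse Genome 430A 2.0 arrays, 1 array per sample, in 6 groups of 2. The deposited values are linear probe set intensities, and RMA, limma and MAS5 appear in the submitters' processing notes with neither a version nor a role, so the tool that made them is unknown here. Of 22690 probe sets, 20380 carried 1 gene symbol, 691 several, 1555 none, and 64 were controls.

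Intensities were turned into log2(intensity + 16) and quantile normalized over the 12 arrays. The probe set with the highest mean stood for each of 12393 genes. Genes whose highest group mean was above the 25th percentile of all values (5.25) were tested, 10674 in all. A limma 3.58.1 model (R 4.3.3) with 6 group means, residual df 6 and prior df 5.75 gave moderated tests, adjusted by Benjamini-Hochberg over all 10674 genes and called under 0.05. Scripts were tested on simulated data. A late change was continuing or reversing when the early step was called too, with the same or the opposite sign, and starting when the early step was uncalled and the late change differed from it.

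The members and the 38 gene lists were chosen with earlier results of these data known. Named genes were the 12 largest rises and 12 largest falls of at least 2-fold without overlap between the 4 arrays, the 5 largest per class and direction, up to 4 called members per list, the 6 largest differences between the arms in each direction, and defining markers of other cell types. Other members are named in the text to give their list's values and were chosen after their values were seen. Promoters and genomic spans come from RefSeq for GRCm38.p6. The files name no genome build. Alternatives covered normalization, pseudocount, filter, probe set, replicate block, prior, the arrays in the fit and each array left out. Where that left 1 array in a group, it was assumed to vary like the other groups.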

Additional observations from a re-analysis of the deposited data

Results flagged for a closer look

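Of the 151 named genes, 69 had a called difference between the arms. For 12 of them, the 6 widest differences in each direction among genes called in 6TCF, the change from day 5 to day 10 differed between 6TCF and SGCF by limma's test of the difference. Groups of 2 arrays are too small to look for outlying samples. The change was larger in 6TCF for Mylpf by 3.20, Myl1 by 2.97, Grp by 2.71, Lyz1 by 2.29, Mmp3 by 2.13 and Stfa3, a cysteine protease inhibitor of the stefin family, by 2.05. It was more negative or smaller in 6TCF for Inmt (-3.47), Cdkn1c (-3.34), Tenm3, a teneurin adhesion protein (-2.55), Col11a1 (-2.54), Igf1 (-2.44) and Kng1, a kininogen (-2.31).

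The calls of a difference for Mylpf, Myl1 and Stfa3 were lost when any of several arrays was left out. With all arrays kept, that of Mylpf was also lost with pseudocount 1, without the filter, or with an intensity trend and robust prior. That of Myl1 was lost with pseudocount 1. In 8 fits that each left out 1 array, Mylpf was called in 2, Myl1 in 3 and Stfa3 in 3, and their values lay between 1.92 and 4.48, 1.84 and 4.10, and 1.46 and 2.64. Each lost its call without 6TCF day 5 replicate 1, 6TCF day 5 replicate 2, SGCF day 5 replicate 1 or SGCF day 10 replicate 2. Mylpf and Myl1 also lost it without 6TCF day 10 replicate 2, Mylpf without SGCF day 10 replicate 1, and Stfa3 without 6TCF day 10 replicate 1. The other 9 genes were called in all 8 fits. Tenm3 went from 9.34 and 9.62 to 8.33 and 8.40 in 6TCF and from 7.41 and 7.54 to 8.91 and 8.92 in SGCF, so the arms moved in opposite directions. Kng1 went from 5.52 and 5.96 to 6.44 and 6.39 in 6TCF and from 5.48 and 5.23 to 8.15 and 8.54 in SGCF. Its 6TCF change of 0.68 was called by itself only without day 5 replicate 2 among the leave-outs (0.46, 0.89, 0.65 and 0.70), and it was 0.35 and uncalled with the mean of all probe sets. Stfa3 went from 4.75 and 4.83 to 6.95 and 5.77 in 6TCF and from 5.78 and 4.74 to 4.84 and 4.73 in SGCF. The 6TCF change of Stfa3 was uncalled without day 5 replicate 1 (1.53) or day 10 replicate 1 (0.98). Probe sets of stefin genes may respond to near-identical copies.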

How the results depend on the processing

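Of 151 named genes, 124 kept their call under every setting that kept all 6TCF arrays and in which they were tested. Those settings included the fit of the 6TCF arrays only. Some dim genes, such as Cldn1, did not pass the filter in every setting. Most of the 151 lost their call without at least 1 of the 4 arrays, and 0 changed sign. With 2 arrays a group, each left-out array set the counts. Without 1 array, the called genes numbered between 370 and 1448, those higher between 222 and 828 and those lower between 113 and 620. Genes changed at least 2-fold lay between 136 and 346, with 84 to 232 higher and 51 to 114 lower. Continuing genes lay between 139 and 291, reversing between 68 and 320, starting between 12 and 143, and genes that differed between the arms between 529 and 963. With pseudocount 1, 121 genes were at least 2-fold lower, and with pseudocount 64, 113 changed at least 2-fold, 74 higher and 39 lower. A fit of the 6TCF arrays only called 2528 genes, 1206 of them lower, with 755 continuing, 461 reversing and 305 starting, and a fit of the 4 arrays of days 5 and 10 called 1750. The cause of these shifts was not tested. The share of higher calls was 55% and lay between 52.3% and 60.9% with all 6TCF arrays kept, the low end being the fit of the 6TCF arrays only. With the replicate number as a block, 1263 genes were called, 1234 of them shared with the 1688, and the block is no pairing: deviations of same-numbered 6TCF arrays correlated at -0.023, -0.031 and -0.022. Signal over background limits dim genes, whose changes shrink as the pseudocount grows.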

Other observations

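Of 26 tested NRF2 and metallothionein genes, 7 were lower at day 10 and 4 higher. Those lower included Slc7a11, the cystine importer, which went from 7.28 and 6.72 to 5.87 and 6.10 (-1.02 ± 0.17), Gclc, of glutathione synthesis (-0.72), Txnrd1, thioredoxin reductase (-0.60), and Hmox1, haem oxygenase (-0.56). Those higher were the glutathione transferase genes Gstt1 (1.12 ± 0.14), Gstm2 (0.94, and 0.71 and uncalled without day 5 replicate 1) and Gsta3 (0.82, called only without day 5 replicate 2 among the leave-outs, which gave 0.72, 0.92, 0.74 and 0.89) and the secreted peroxidase gene Gpx3 (0.46). Without single arrays, 2, 7, 2 and 2 members were lower and 1, 3, 2 and 2 higher, in the order of left-out arrays used above.

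Among 23 adipocyte lipid genes, Fabp4, a fatty acid carrier (1.17 ± 0.16), Cd36, a fatty acid transporter (0.91 ± 0.20), and Lpl, lipoprotein lipase (0.67 ± 0.16), rose, and Fasn, fatty acid synthase, fell by 0.96 ± 0.18. Without single arrays, 1, 2, 2 and 2 members were higher. Cd36 was uncalled without day 5 replicate 1 (0.68) or day 10 replicate 2 (0.78), Lpl was called only without day 10 replicate 2 (0.80), and Fasn was uncalled without day 10 replicate 1 (-0.91). With the mean of all probe sets Fabp4 was at 0.59, still called. Of 28 glycolysis and hypoxia genes, 4 were higher and 3 lower, the latter Hk1, Hk2 and Pfkp, enzymes of early glycolysis (-0.60, -0.85 and -0.50). These 3 were uncalled in each of the 4 leave-outs, in which Hk2 kept values of -0.94, -0.77, -0.79 and -0.92. Of 33 ATF4 and unfolded protein response genes 4 were lower (2, 3, 2 and 3 without single arrays), among them the amino acid transporter gene Slc7a5 (-0.80 ± 0.16) and Mthfd2, of mitochondrial folate metabolism (-0.78 ± 0.13, and -0.44 with the mean of all probe sets, still called). Slc7a5 was uncalled without day 5 replicate 1 (-0.67) or day 10 replicate 1 (-0.74). Of 19 cholesterol synthesis genes, 1 was higher and 1 lower (5.26% each). Among all genes 8.69% were higher and 7.12% lower. The shares were 13% and 4.35% for adipocyte lipid genes and 14.3% and 10.7% for glycolysis and hypoxia genes. For ATF4 and unfolded protein response genes they were 0% and 12.1%.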
